A study of Arabidopsis thaliana with 4 samples.

Results

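The genes described here encode the alternative NADH dehydrogenases (NDA, NDB and NDC) and the electron transfer flavoproteins (ETF) of Arabidopsis thaliana, measured in whole seedlings with and without aluminium. Members were the probe sets that the array's gene table pairs with exactly 1 nuclear gene whose symbol is NDA, NDB or NDC with a digit, or begins with ETF. This rule uses no measured value. It found 8 probe sets for 8 genes, 5 dehydrogenases and 3 flavoproteins, among 22746 plant probe sets, of which 13513 are paired with 1 gene. The members were NDB1 (AT4G28220), NDB2 (AT4G05020), NDB3 (AT4G21490), NDB4 (AT2G20800), NDC1 (AT5G08740), ETFALPHA (AT1G50940), ETFBETA (AT5G43430) and ETFQO (AT2G43400). NDA1 and NDA2 were not analysed here. Seedlings were moved from agar into liquid Murashige and Skoog medium at reduced strength with 1% sucrose and kept there for 16 h, with 50 µM aluminium or with a mock treatment. The treatment text of the labels names aluminium for all 4 arrays, and the titles set the controls apart. The labels name no mutant, transgene, ecotype or age. Each of the 4 Affymetrix ATH1 arrays carried RNA from 100 pooled seedlings, and each treatment had 2 arrays that the labels call biological replicates.

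Plant mitochondria own dehydrogenases beside complex I that pass electrons from NADH or NADPH to ubiquinone without pumping protons. NDB enzymes face the space between the membranes and use NAD(P)H from the cytosol, while NDA and NDC enzymes face the matrix, and NDC1 also lies in plastids. ETF is a dimer of an alpha and a beta subunit that collects electrons from the breakdown of branched-chain amino acids and lysine, and ETFQO hands them on to ubiquinone, a route known from carbon-starved and darkened plants. Aluminium is toxic to roots in acid soil.

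The deposited intensities are linear and were scaled to a common mean on each array. The bacterial level used below is each array's 95th percentile of its 27 bacterial control probe sets, 422 to 586, a strict level that 35.1% to 45.3% of plant probe sets exceeded. For GAPDH, the 3′ probe set read 3.52 times the 5′ one on aluminium replicate 1 and 1.44 to 1.71 times on the other arrays. The hybridization controls ranged from 6339 on control replicate 2 to 131442 on aluminium replicate 1. Of 6 listed green-tissue markers, 4 were measured (RCA, LHCB4.1, PRK and SBPASE), and all 4 were lower on both aluminium arrays, as were 16.2% of all plant probe sets. None of the 4 passed limma over all plant probe sets (adjusted p = 0.966). The unadjusted p of limma was under 0.05 for 2 of them, RCA (0.032) and LHCB4.1 (0.0496), against 4.77% of all plant probe sets. The summed intensity of the 4 markers was 6832 and 11353 with aluminium and 31772 and 23017 in controls. Of 7 root markers, PYK10 and EXPA7 were measured, with a summed intensity of 573 and 1074 with aluminium and 1429 and 995 in controls. EXPA7 lay under the bacterial level on all 4 arrays, so the sum was mostly PYK10. Both genes overlapped between the groups. None of the 4 listed seed and flower markers was analysed. The part of the array differences and of the shift in green-tissue markers in the results below was not tested. In whole seedlings, fewer cells of a type and less RNA per cell cannot be told apart.

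Across the 8 genes, ETFBETA and NDB2 read higher on both aluminium arrays than on either control, NDB1 and NDB4 read lower on both, and the other 4 genes overlapped between the groups. Groups that did not overlap thus made up 4 of 8 members, against 32.7% of all plant probe sets. The 2 higher members stand beside a background of 16.5%, and the 2 lower members beside 16.2%. The aluminium and control arrays were compared by limma on log2(intensity + 16), a scale that understates fold changes of dim genes, with Benjamini-Hochberg adjustment over all 22746 plant probe sets. It called 0 of the 8 genes at an adjusted p under 0.05, where the background was 0.0%. At an unadjusted p under 0.05 it also called 0 of 8, against 4.77% of all plant probe sets. Of the members, 4 had a positive and 4 a negative difference, and their median was 0.27 (log2), while that of all plant probe sets was 0.0064. The median size of a difference, whatever its sign, was 0.72 for the members and 0.63 for all plant probe sets. The median distance between the arrays of one treatment was 0.72 (aluminium) and 1.02 (control) for the members. For all plant probe sets it was 0.90 and 0.76. In both sets the median size of a difference did not exceed either distance. The sizes are not directly comparable, since a difference is between means of 2 arrays and a distance between single arrays. With control replicate 2 left out the members' median was 0.63, and with aluminium replicate 1 left out it was −0.55.

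**Figure D1:**
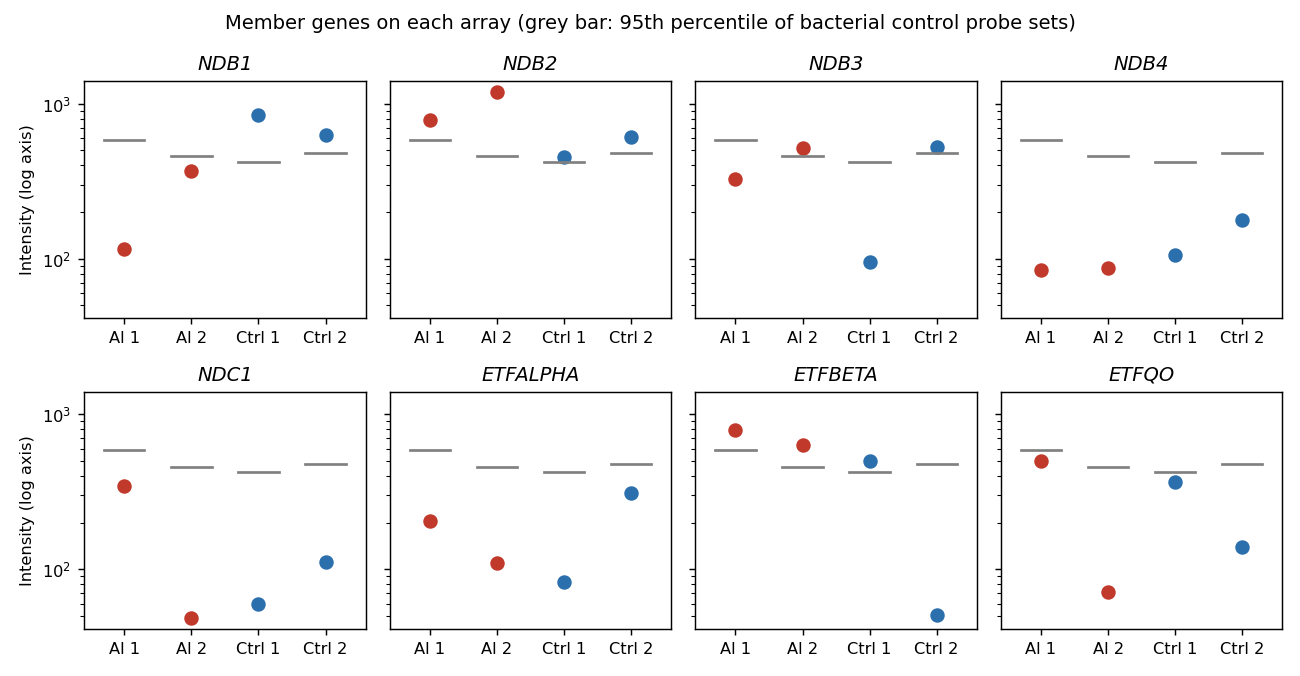
Intensity of each of the 8 member genes (log axis) on the 2 aluminium arrays (Al, red) and the 2 control arrays (Ctrl, blue). The grey bar is the 95th percentile of the bacterial control probe sets on that array. NDB2 lies above it on all 4 arrays, and NDB4, NDC1, ETFALPHA and ETFQO lie below it on all 4.

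NDB2 encodes an external dehydrogenase that oxidises cytosolic NADH and is stimulated by calcium, and it is known as a stress-responsive partner of the alternative oxidase. It was the 1 member above the bacterial level on all 4 arrays. Its intensity was 789 and 1191 on aluminium replicates 1 and 2, and 453 and 608 on control replicates 1 and 2. Both aluminium arrays lay above both controls, in 4 of 4 pairs of arrays, by 0.37 to 1.36 on the log2 scale. The group means were 9.94 ± 0.41 and 9.08 ± 0.29 (SD, n = 2 each) on that scale, a difference of 0.86 with a standard error of 0.69. The 95% interval of that difference ran from −0.84 to 2.57, and the gene did not pass limma (adjusted p = 0.966). With 1 array left out in turn, the NDB2 difference ranged from 0.57 to 1.16, and groups without overlap must keep their sign. The 2 other nuclear genes whose centred log2 profile over the 4 arrays lay nearest to that of NDB2, of 2079 above the bacterial level on all arrays, were AT4G22530 and AT5G06590, each at a root mean square distance of 0.07. AT4G22530 had 1228 and 1811 on the aluminium arrays and 732 and 1061 on the controls. The 2 genes were selected for this nearness, and shared regulation with NDB2 was not tested.

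NDB1 encodes the external dehydrogenase that prefers NADPH and depends on calcium. Its intensity was 116 and 369 with aluminium and 844 and 625 in controls. Both controls lay above the bacterial level of their array and both aluminium arrays below it. The groups did not overlap, and in 0 of 4 pairs of arrays was the aluminium array the higher. On the log2 scale, the aluminium mean was 7.82 ± 1.10 and the control mean 9.54 ± 0.30 (SD, n = 2 each). The difference of −1.72 had a standard error of 0.81 and a 95% interval from −3.71 to 0.27. With each aluminium value of NDB1 raised to the lowest signal above the bacterial level on its array, the control mean was 1.39-fold higher. That figure takes no account of the spread between arrays and sets no lower limit on the change. The gene did not pass limma (adjusted p = 0.966). Aluminium replicate 1 set much of the size, and without it the NDB1 difference was −0.95, while without aluminium replicate 2 it was −2.50.

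NDB3 is closely related to NDB2. The aluminium arrays read 326 and 513 for NDB3, and the controls 95.3 and 523. Control replicate 1 stood low and control replicate 2 was the highest array of all, so the groups overlapped. The NDB3 difference was 0.80 with a 95% interval from −1.55 to 3.15 (limma, adjusted p = 0.972), and it was −0.34 without control replicate 1.

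NDB4 oxidises NADH without a need for calcium. The aluminium arrays read 84.5 and 86.8 for NDB4, and the controls 106 and 177. The aluminium arrays were close to each other and below both controls, yet all 4 values lay under the bacterial level. The NDB4 difference on the log2 scale was −0.59 with a 95% interval from −2.29 to 1.10 (limma, adjusted p = 0.971), and it ranged from −0.92 to −0.26 with 1 array left out. The 4 external genes together had 2 positive and 2 negative differences.

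NDC1 encodes the dehydrogenase of the matrix and of plastoglobules, lipid droplets of the plastid, where it reduces plastoquinone and takes part in making phylloquinone. Its intensity was 346 and 48.4 with aluminium, and 59.7 and 111 in controls. Aluminium replicate 1 was the highest and aluminium replicate 2 the lowest of the 4 arrays, all under the bacterial level. The aluminium arrays thus differed 7.15-fold from each other. The NDC1 difference was 0.64 with a 95% interval from −1.84 to 3.12 (limma, adjusted p = 0.983), and it was −0.61 without aluminium replicate 1. Of 6 listed partners in the plastid, 2 were measured, and both had positive differences with overlapping groups. MENG, a methyltransferase of phylloquinone synthesis, had 1528 and 847 on the aluminium arrays and 928 and 886 on the controls. PHYLLO, which acts early in the same pathway, had 761 and 897 on the aluminium arrays and 198 and 851 on the controls. The difference was 0.32 for MENG and 0.97 for PHYLLO, and without control replicate 1 that of PHYLLO was −0.042.

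ETFBETA encodes the beta subunit of ETF. Its intensity was 787 and 635 with aluminium, and 499 and 50.8 in controls. The aluminium arrays were the 2 highest and differed 1.24-fold, while the controls differed 9.83-fold. On the log2 scale, the aluminium mean was 9.50 ± 0.21 and the control mean 7.54 ± 2.08 (SD, n = 2 each). The ETFBETA difference of 1.96 was the largest of the 8 members in size, with a standard error of 1.09 and a 95% interval from −0.72 to 4.64 (limma, adjusted p = 0.966). Control replicate 2, the 1 array under the bacterial level, set most of it. Without that array the ETFBETA difference was 0.49, and without control replicate 1 it was 3.44.

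ETFALPHA encodes the subunit that pairs with ETFBETA. The aluminium arrays read 205 and 110 for ETFALPHA, and the controls 82.2 and 312. The controls were the lowest and the highest of the 4 arrays, and none reached the bacterial level. The ETFALPHA difference was −0.11 with a 95% interval from −2.24 to 2.03 (limma, adjusted p = 0.999). Control replicate 2, where ETFBETA read lowest, was the array on which ETFALPHA read highest. Leaving out control replicate 2 gave an ETFALPHA difference of 0.76, and leaving out control replicate 1 gave −0.98.

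ETFQO encodes the oxidoreductase that joins ETF to ubiquinone. Its intensity was 499.9 and 71.8 with aluminium, and 365 and 140 in controls. The array order ran from aluminium replicate 1 over control replicate 1 and control replicate 2 to aluminium replicate 2, so the controls lay between the aluminium arrays. All 4 values were under the bacterial level. The ETFQO difference was −0.20 with a 95% interval from −2.82 to 2.43 (limma, adjusted p = 0.999). It was 1.08 without aluminium replicate 2 and −1.47 without aluminium replicate 1.

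**Figure D2:**
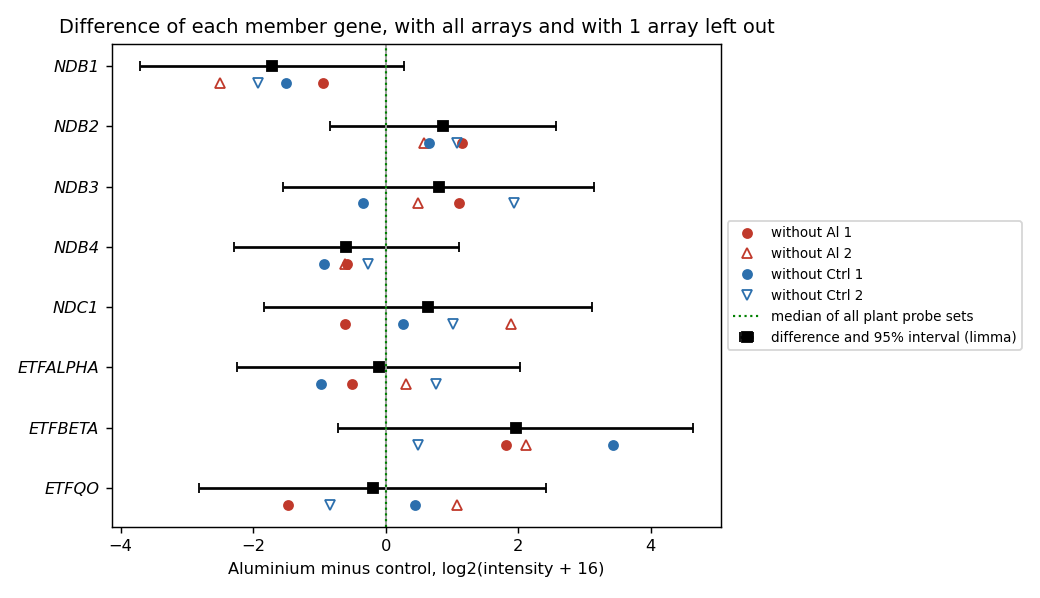
Difference of aluminium minus control on log2(intensity + 16) for each member gene (black square) with its 95% interval from limma, and below it the same difference with 1 array left out (coloured symbols). All 8 intervals include 0. NDB1, NDB2, NDB4 and ETFBETA keep their sign whichever array is left out, as groups without overlap must, and the other 4 genes do not.

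Upstream of ETF, 8 of 14 listed genes for electron donors and branched-chain amino acid breakdown were measured. Of these, 2 had positive and 6 negative differences, with a median of −0.072, and limma called 0 of 8, with none under an unadjusted p of 0.05. None of the 8 had groups without overlap, against 32.7% of all plant probe sets. IVD, isovaleryl-CoA dehydrogenase, which feeds ETF in leucine breakdown, had 1497 and 361 on the aluminium arrays and 1027 and 578 on the controls. Its 4 arrays stood in the same order as those of ETFQO. So did those of AT4G33150, annotated as the lysine-ketoglutarate reductase and saccharopine dehydrogenase of lysine breakdown, with 1127 and 588 against 1049 and 918. Of the 23 measured genes of the related lists, 3 had this order, and the other was MENG of phylloquinone synthesis. IVD and AT4G33150 were named after their values had been seen, and 5.73% of all plant probe sets have the same order. D2HGDH, the D-2-hydroxyglutarate dehydrogenase that also donates to ETF, had 1123 and 932 on the aluminium arrays and 1231 and 956 on the controls, and its order was another.

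**Figure D3:**
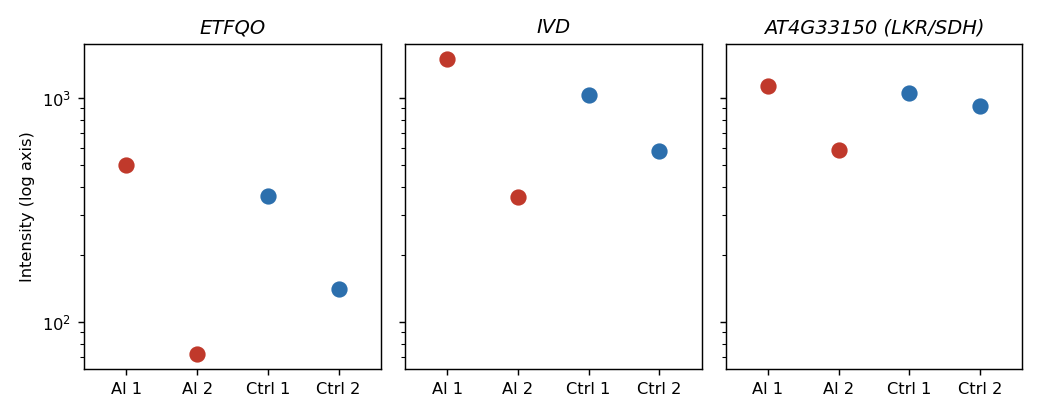
Intensity (log axis) of ETFQO, IVD and AT4G33150 on the 2 aluminium arrays (Al, red) and the 2 control arrays (Ctrl, blue). From highest to lowest, the order in each gene is aluminium replicate 1, control replicate 1, control replicate 2 and aluminium replicate 2. IVD and AT4G33150 are the 2 of 8 measured donor genes with the order of ETFQO. They were picked after their values had been seen, and 5.73% of all plant probe sets have this order.

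The donor genes with the largest differences each rested on 1 array. The aluminium arrays read 134 and 1673 for AT2G26800, and the controls 1572 and 1485. Its difference was −1.62, and 0.13 without aluminium replicate 1. ALDH6B2, an aldehyde dehydrogenase of valine breakdown, had 1774 and 1509 on the aluminium arrays and 2342 and 315 on the controls. The ALDH6B2 difference was 0.90, and −0.51 without control replicate 2, the array on which ETFBETA was also lowest. MCCA, the alpha subunit of methylcrotonyl-CoA carboxylase, had 150 and 369 on the aluminium arrays and 885 and 184 on the controls. The MCCA difference was −0.75, and 0.34 without control replicate 1. The beta subunit MCCB was steadier, with 1573 and 1048 against 1199 and 1380, a difference of −0.0030, which was 0.013 with quantile normalization and 0.020 with median centring.

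Other enzymes that bring electrons to ubiquinone or take them onward were read from the same fit. Of 10 listed other dehydrogenases 6 were measured, 2 with positive and 4 with negative differences, a median of −0.11 and 0 calls. Those with the largest differences were SDH1-2 (1.14), a flavoprotein subunit of succinate dehydrogenase, GLDH (−0.42), which makes ascorbate and passes its electrons to cytochrome c and not to ubiquinone, and AT5G38710 (−0.17). SDH1-2 was high on aluminium replicate 2 alone, at 442 against 47.5 to 94.1 elsewhere. Of 8 listed nuclear complex I subunits, FRO1 was measured, and its difference was 0.66. Both genes of cytochrome c, the carrier between complexes III and IV, were measured, and their differences were 1.07 for CYTC-1 and 0.68 for CYTC-2. In all 3 genes control replicate 1 was the low array. CYTC-1 read 3812 there and 14627 to 22994 on the others, and its difference without control replicate 1 was −0.12. FRO1 stood at −0.37 and CYTC-2 at −0.81 without that array.

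Of 7 genes listed for the mitochondrial stress response 4 were measured, with 2 positive and 2 negative differences, a median of 0.061 and 0 calls. AT5G09570 had 1047 and 1028 on the aluminium arrays and 693 and 910 on the controls. It was the 1 of the 23 measured genes of the related lists, of 61 listed, whose groups did not overlap, where the background was 32.7%. AT5G64400 differed by 1.01 and AT5G51440 by −0.28, both with overlap. None of the 8 alternative oxidases and uncoupling proteins and none of the 6 carbon starvation markers listed was analysed here. Over the 23 related genes, 11 differences were positive and 12 negative, with a median of −0.0030, and limma called 0, with 0 under an unadjusted p of 0.05 and a smallest adjusted p of 0.966.

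**Figure D4:**
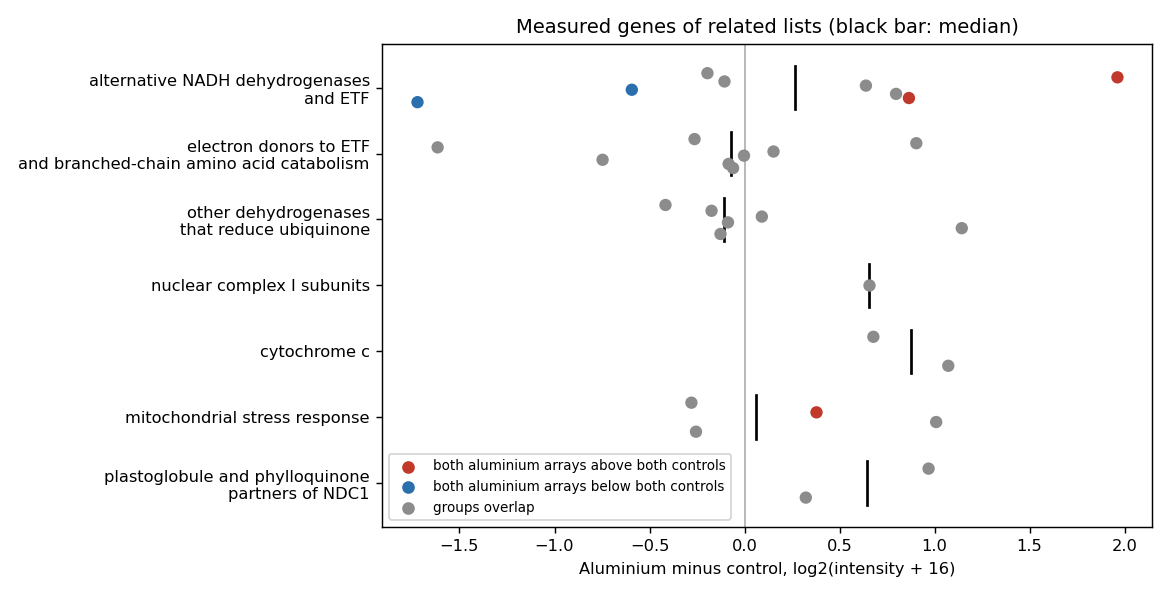
Difference of aluminium minus control on log2(intensity + 16) for each measured gene (points) of the member list and of the 6 related lists with a measured gene, with the list's median (black bar). Red and blue points are genes whose groups do not overlap, which are 4 of the 8 members and 1 of the 23 related genes, against 32.7% of all plant probe sets. The members' count was not tested against either share.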

How the data were processed

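RNA from whole Arabidopsis seedlings was hybridized to 4 Affymetrix ATH1 arrays, 2 per treatment. The deposited values are 1 linear intensity per probe set and array. GCOS and RMA appear in the submitters' processing notes without a stated role. Per array, the deposited intensities average 500.0 once 2% of probe sets is trimmed at each end. Groups came from the sample titles. The 64 manufacturer's control probe sets were left out, and no dim probe set was. Probe sets were named by the platform's gene table and matched by Entrez identifier to a table of assembly TAIR10.1, used for names. Of the plant probe sets, 503 were paired with several genes and 8730 with none.

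Intensities were put on log2(intensity + 16), and the treatments were compared by limma 3.58.1 (R 4.3.3), two-sided, with Benjamini-Hochberg adjustment over 22746 probe sets and a threshold of 0.05. The number of arrays limits the precision. All members were named. From related lists with over 3 measured genes the rule named the 3 with the largest differences. IVD, D2HGDH, MCCB and AT4G33150 were named in addition after their values were seen, and the measured markers were named as a check of the tissue. For a gene with several probe sets, lists used the brightest. The members and lists were chosen with earlier results of these data known. Alternatives were median centring, quantile normalization, a replicate block, pseudocounts of 1 and 64, robust estimation with an intensity trend, removal of the dimmest 25% or 50% of probe sets, and each array left out. Figures used matplotlib 3.10.9 in Python 3.11.15.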

Additional observations from a re-analysis of the deposited data

Results flagged for a closer look

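The hybridization controls, added to every array and outside the comparison of genes, were 2.57 times as bright on aluminium replicate 1 as on control replicate 1, the brighter control array. On the same pair of arrays, 25S ribosomal RNA, which also lies outside the comparison, was 2.58 times as bright. In both measures the treatments overlapped. The hybridization controls read 131442 and 11226 on aluminium replicates 1 and 2, and 51057 and 6339 on control replicates 1 and 2. In the same order, 25S ribosomal RNA read 3511 and 533, and 1362 and 416. Both measures were thus brighter with aluminium within each replicate number, and brighter on both replicate 1 arrays than on both replicate 2 arrays. The part of this in the gene differences was not tested.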

How the results depend on the processing

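Limma called 0 of the tested members and 0 of the tested plant probe sets under each of the 8 alternatives that keep all arrays. The members tested were 8, but 6 without the dimmest 25% of probe sets and 4 without the dimmest 50%. In fits with 1 array left out, the lone array was assumed to vary like the others. The smallest adjusted p of a member in limma was at least 0.899 under the 8 alternatives that keep all arrays. With the replicate number as a block it was 0.899, with 0 calls. Over the plant probe sets, the deviations of same-numbered arrays from their group means correlated at 0.0867. The hybridization controls and 25S ribosomal RNA, however, were brighter on both replicate 1 arrays than on both replicate 2 arrays. The labels name no batch, so whether the numbers pair the arrays is not known. The 8 alternatives that keep all arrays reversed no difference of a member or of the 14 related genes named by rule. Of the 4 related genes named later, they reversed MCCB (−0.0030 as reported), to 0.013 with quantile normalization and 0.020 with median centring. They left the members' median between 0.22 and 0.30 (0.27 as reported), where leaving out the dimmest 25% removed NDB4 and NDC1, leaving out 50% also ETFALPHA and ETFQO, and neither was used for a median. With 1 array left out, the members' median ranged from −0.55 to 0.63. A difference then changed sign in 4 of the 8 members and 15 of the 18 named related genes, and only their ranges follow. Member differences ranged from −0.34 to 1.93 for NDB3, −0.61 to 1.88 for NDC1, −0.98 to 0.76 for ETFALPHA and −1.47 to 1.08 for ETFQO. Among related genes the range was −1.83 to 0.34 for MCCA, −3.36 to 0.13 for AT2G26800, −0.51 to 2.32 for ALDH6B2, −0.17 to 2.45 for SDH1-2, −1.35 to 1.00 for AT5G38710, −0.37 to 1.68 for FRO1, −0.12 to 2.26 for CYTC-1, −0.81 to 2.16 for CYTC-2, −1.62 to 1.06 for AT5G51440, −0.098 to 0.74 for MENG, −0.042 to 1.98 for PHYLLO, −1.06 to 0.94 for IVD, −0.26 to 0.096 for D2HGDH, −0.29 to 0.29 for MCCB and −0.72 to 0.20 for AT4G33150, the last 4 added after seeing the data. The cause was not tested. At an unadjusted p under 0.05, counts added after seeing the data, there were 1084 probe sets, 454 without the dimmest 50% (fewer were tested), 616 without control replicate 1 and 2532 without aluminium replicate 2. Of the 32 member values, 11 exceeded the 95th percentile of the bacterial probe sets and 22 their median.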
